A study of Canis lupus familiaris with 20 samples.

Results

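The genes described here are those of the cytosolic ribosomal proteins, the protein parts of the ribosome that makes the cell's proteins outside mitochondria. They were followed in dog retina after ciliary neurotrophic factor (CNTF), a cytokine that acts through the shared receptor gp130, was injected into the eye. They were chosen by name: every probe whose gene name in the array files begins with RPL or RPS followed by a number, or with RPLP, and not with RPS6K, the name of a family of kinases. This gave 50 of the 35483 names on the array, carried by 90 of its 43603 distinct probes. Where a name had more than 1 probe, the brightest on average over the 20 arrays stood for it. Of the names 23 are small-subunit proteins, 20 are large-subunit proteins and 2, RPLP0 and RPLP1, form the stalk of the large subunit. The others are the paralogues RPL22L1, RPL7L1 and RPL36AL, the binding protein RPS19BP1, which is no part of the ribosome, and RPL6P, named as a pseudogene.

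The samples were retinas of 10 dogs of a research colony, 1 array per eye. The right eye received 12 µg of CNTF and the left eye phosphate-buffered saline (PBS), both into the vitreous, and both retinas were taken after 1 week. The 5 normal dogs were all male. Of these 4 were heterozygous (CNGB3+/m) and 1, number 3, was CNGB3+/+. The 5 mutant dogs were homozygous for a missense mutation of CNGB3 (CNGB3m/m), which encodes a subunit of the cone photoreceptor's cyclic nucleotide-gated channel and is mutated in achromatopsia, and numbers 2, 3 and 5 were female. By the sample labels the normal dogs were 8.9 weeks old and mutants 10.7 to 11.5 weeks, but the series text puts both at about 11 months. Genotype therefore went with age in the labels and partly with sex. No eye was without an injection.

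Ribosomal proteins are needed in matching amounts to build a ribosome, and their mRNAs are among the most abundant of most cells. These mRNAs begin with a tract of pyrimidines, through which mTOR signalling controls their translation, and MYC is known to raise the transcription of many of them. In the retina the rod photoreceptors, which renew their outer segments throughout life, make up most of the cells.

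The probes that carry the results are short DNA strands, and their letters show what was measured. The probes of RPL18 and RPS23 are shown because these genes had among the largest rises. In canFam2, the dog genome build of the array design, they lie at chr1:110577380-110577439 and chr3:28093300-28093359, both on the plus strand and both 60 bases long. The exons that these probes lie in were not assigned.
RPL18 probe: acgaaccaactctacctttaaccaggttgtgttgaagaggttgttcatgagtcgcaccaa
RPS23 probe: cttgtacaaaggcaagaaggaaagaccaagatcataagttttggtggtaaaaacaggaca

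Of the 4 probes of RPS7, 3 are shown in their order along the gene because the last and brightest was saturated, which means that it had reached the scanner's ceiling, and the others were not. They lie on the plus strand at chr17:5116501-5116865, chr17:5119404-5119627 and chr17:5119622-5119681. The first and second positions are longer than the probe itself. Capitals mark the 6 bases that the second and last probes share.
RPS7 first: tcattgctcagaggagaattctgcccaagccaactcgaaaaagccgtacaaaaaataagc
RPS7 second: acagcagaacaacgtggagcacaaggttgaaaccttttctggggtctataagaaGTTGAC
RPS7 last: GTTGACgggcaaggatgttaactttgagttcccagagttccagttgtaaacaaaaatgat

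A pair of RPLP1 probes is shown because they read opposite strands of the same stretch, at chr30:36343104-36343163 on the plus strand and chr30:36343080-36343139 on the minus strand. Capitals mark the 36 bases in which each is the reverse complement of the other. The plus-strand probe had a mean intensity of 67260 and the minus-strand probe one of 41.2.
RPLP1 plus: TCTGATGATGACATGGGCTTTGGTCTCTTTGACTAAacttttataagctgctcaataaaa
RPLP1 minus: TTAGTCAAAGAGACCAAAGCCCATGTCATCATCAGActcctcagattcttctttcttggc

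Levels are given on a log2 scale relative to each array's own 75th percentile of signal, so that 0 is the 75th percentile of the probes of that array. A change is the difference of such levels, CNTF eye minus PBS eye. Tests were limma's moderated test, adjusted by the Benjamini-Hochberg method over all probes, and a gene was called higher or lower where the adjusted p was under 0.05. In whole retina, a change in the share of a cell type and a change of RNA per cell cannot be told apart.

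Across arrays, 51.7 to 71.6% of probes were well above background and 127 to 209 probes were saturated. The 75th percentile was 291 to 592 intensity units. Rod markers were bright on all arrays, with summed intensities of 384893 to 411553 in PBS eyes and 280932 to 343375 in CNTF eyes. Summed intensities of 9 microglia and macrophage markers were 2835 to 4207 in PBS eyes and 11322 to 16628 in CNTF eyes. These sums were not scaled from array to array. Each slide held 4 arrays, and treatment went almost entirely with the slide: slides 1 and 2 held PBS eyes only, slides 4 and 5 CNTF eyes only, and slide 3 held 2 PBS eyes of mutant dogs and 2 CNTF eyes of normal dogs.

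Of the 50 genes 45 were well above background on all 20 arrays and 46 could be tested. RPL11, which binds MDM2 when ribosome assembly fails, and RPL6P were above background on no array. The other genes not tested had a chosen probe marked as an outlying spot on most arrays, in the case of RPS12 on 14. RPS4Y1 bears the name of a human Y-linked copy, but its probe lies on chromosome X of the dog and is described as RPS4. No probe carried the name of RPS6, RPS19, RPL3, RPL5 or RPLP2, and 138 further probes are described as ribosomal proteins under other names and were not counted among the genes.

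The chosen probes of 13 genes were saturated on some array. RPL22L1 was saturated on 20 arrays, RPLP1 and RPS28 on 19 each, RPL19 on 18, RPS14 on 17 and RPS7 on 15. RPLP0 was saturated on 11 arrays, RPS3 on 10, RPL8 on 9, RPS4Y1 on 8, RPL35 on 7 and RPS10 on 5. At the ceiling a rise cannot be read in full.

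In normal dogs most ribosomal protein genes were higher in the CNTF eye. Of the 46 tested genes 29 were higher, 4 were lower and 13 were not called, where 23.6% of all probes tested were higher and 27.6% lower. The median change of the genes was 0.55, with a range of -1.05 to 1.22, against -0.09 over all probes. In 25 genes every CNTF level lay above every PBS level, and in 4 every CNTF level lay below, as they did for 14.3% and 15.8% of all probes. Genes of both subunits were called: 14 of 21 small-subunit genes were higher with a median of 0.63, and 12 of 19 large-subunit genes with a median of 0.53.

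The probes of these genes are bright, so other bright probes are given beside them. These leave out only the probes chosen by name. Bright probes described as ribosomal proteins under other names were not removed from them. Of 996 other probes with a mean intensity above 10000, 449 (45.1%) were called higher and 129 lower in normal dogs, with a median change of 0.28. Among the ribosomal protein genes, the 17 with an intensity of 10000 or more that were never saturated included 16 called higher, with a median of 0.90. Of the 8 between 1000 and 10000, 6 were called higher with a median of 0.56. Of the 8 below 1000 none was called higher, 4 were called lower, and the median was -0.29. The part of brightness in the result was not tested.

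RPS23 lies at the decoding centre of the small subunit, where codon and tRNA are matched. Its levels were 5.33, 5.20, 4.54, 4.68 and 5.08 in the PBS eyes of normal dogs 1 to 5 and 6.26, 5.92, 6.14, 5.86 and 6.49 in their CNTF eyes. The lowest CNTF level stood above the highest PBS level. The change was 1.17 ± 0.13 (SE, n = 5 dogs), a 2.25-fold rise (limma, adjusted p = 5.35e-05).

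RPS9 is a small-subunit protein near the channel through which mRNA enters. The PBS levels in normal dogs were 5.72, 5.53, 4.87, 5.06 and 5.17 and the CNTF levels 6.56, 6.19, 6.70, 6.16 and 6.81, without overlap. The change was 1.22 ± 0.17 (SE, n = 5), a 2.32-fold rise (limma, adjusted p = 0.000272).

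RPL18 is a large-subunit protein found in archaea and eukaryotes but not in bacteria. It stood at 3.74, 3.55, 3.0, 3.16 and 3.34 in the PBS eyes of normal dogs and at 4.67, 4.27, 4.71, 4.30 and 4.92 in their CNTF eyes. Every dog was higher in the CNTF eye, and the change was 1.22 ± 0.14 (SE, n = 5), or 2.32-fold (limma, adjusted p = 6.92e-05). RPL15, a large-subunit protein mutated in some cases of Diamond-Blackfan anaemia, an inherited failure of red cell production, stood at 6.21, 6.03, 5.46, 5.59 and 5.80 and at 6.91, 6.59, 7.08, 6.69 and 7.30. These levels did not overlap, with a change of 1.10 ± 0.16 (SE, n = 5; limma, adjusted p = 0.000289). Another RPL15 probe, never saturated, changed by 0.25 ± 0.10 and was not called (limma, adjusted p = 0.0587). The remaining RPL15 probes with a test changed by 0.75 to 0.87.

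RPS10, a small-subunit protein that is tagged with ubiquitin when ribosomes collide, stood at 6.61, 6.36, 5.59, 5.77 and 5.97 in the PBS eyes and at 6.85, 7.22, 6.85 and 7.40 in the CNTF eyes of normal dogs 2 to 5. The array of the CNTF eye of normal dog 1 was left out because its spot was marked as outlying. Of the 5 CNTF arrays of normal dogs 3 were saturated for RPS10 and of their PBS arrays 0, so CNTF levels there sit at the scanner's ceiling. All 4 measured dogs were higher, by 1.16 ± 0.19 (SE, n = 4; limma, adjusted p = 0.00107). With the marked spot kept the change was 0.66 (adjusted p = 0.125), so the call rested on leaving it out, and in the deposited normalised values it was 0.34 (adjusted p = 0.344).

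**Figure D1:**
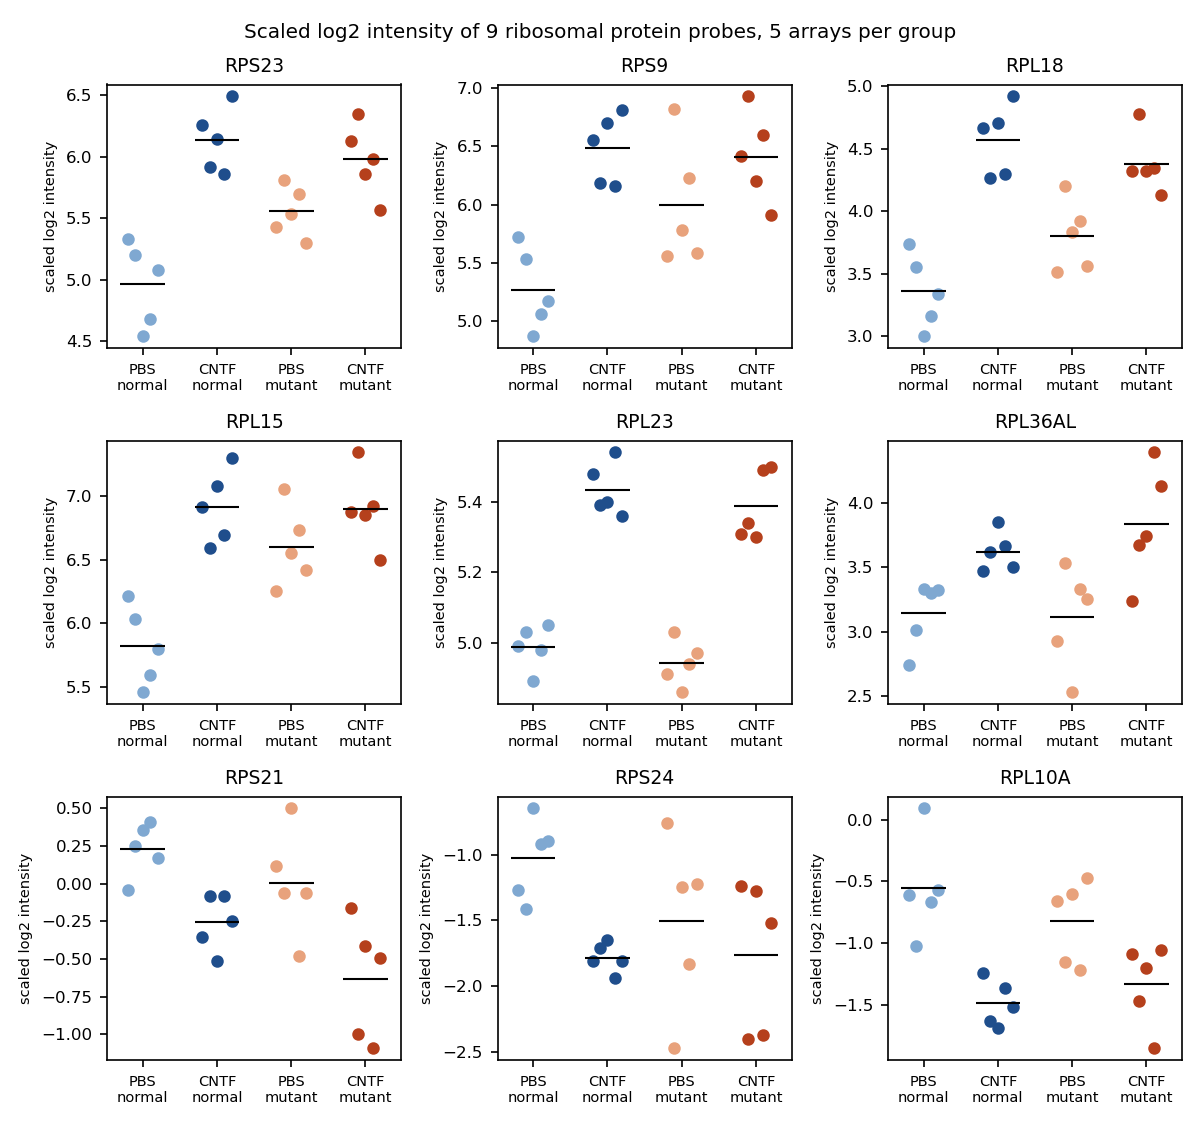
Levels of 9 ribosomal protein genes in the 20 retinas, on a log2 scale relative to each array's 75th percentile, with a point per array and a line at each group's mean. RPS23, RPS9, RPL18 and RPL15 stood higher in every CNTF eye of the normal dogs than in any of their PBS eyes, while RPS24 and RPL10A stood lower.

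The 4 genes called lower in normal dogs had dim probes. Their mean intensities were 38.25 for RPL10, 173.3 for RPS24, 239 for RPL10A and 427.6 for RPS21. Each was the only probe of its name, so no other probe of that name could be compared. RPL10A forms the mobile stalk beside the exit site for spent tRNA. Its levels were -0.61, -1.02, 0.09, -0.67 and -0.57 in PBS eyes and -1.24, -1.63, -1.69, -1.36 and -1.52 in CNTF eyes of normal dogs. Every CNTF level lay below every PBS level, and the probe's level fell by 0.93 on the log2 scale (SE 0.16, limma, adjusted p = 0.000806).

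RPS24, needed for processing of small-subunit rRNA and mutated in some Diamond-Blackfan anaemia, stood at -1.27, -1.41, -0.65, -0.92 and -0.90 and at -1.81, -1.71, -1.65, -1.94 and -1.81. All 5 dogs were lower, by -0.76 ± 0.13 (SE, limma, adjusted p = 0.00112). RPS21, a small-subunit protein, stood at -0.04, 0.25, 0.36, 0.41 and 0.17 and at -0.35, -0.08, -0.51, -0.08 and -0.25. It also fell in all 5 dogs, by -0.48 ± 0.12 (SE, limma, adjusted p = 0.00798). RPL10, which joins the large subunit late, near the site of peptide bond formation, stood at -3.37, -2.38, -3.12, -3.39 and -3.20 and at -4.41, -3.79, -4.18, -3.78 and -4.56. Its probe was well above background on only 2 of the 5 CNTF arrays of normal dogs, and the fitted change was -1.05 ± 0.19 (SE, limma, adjusted p = 0.00141).

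The rest of the genes called higher in normal dogs rose by 0.42 to 1.06 on the log2 scale. RPL13 and RPS20 changed by 1.06 and 1.02, and RPL37A, RPL28 and RPS15 by 0.97, 0.92 and 0.90. RPL23 rose by 0.44. Because their CNTF arrays were all saturated in normal dogs, RPLP0 rose at least 1.65-fold, RPS3 at least 1.69-fold and RPL35 at least 1.45-fold. RPS19BP1, which binds RPS19 and the deacetylase SIRT1 and is no subunit, rose by 0.61 ± 0.13 (SE, limma, adjusted p = 0.00356). Within slide 3, where normal CNTF eyes meet mutant PBS eyes, its difference was -0.10. RPL7L1, a paralogue of RPL7, changed by 0.29 ± 0.19 and was not called (adjusted p = 0.219). RPL36AL and RPL8 were called, but RPL36AL was not without normal dog 1, 2 or 3 (adjusted p of 0.0733, 0.0627 and 0.0676), and RPL8 not without dog 3 or 5 (0.0871 and 0.0832).

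**Figure D2:**
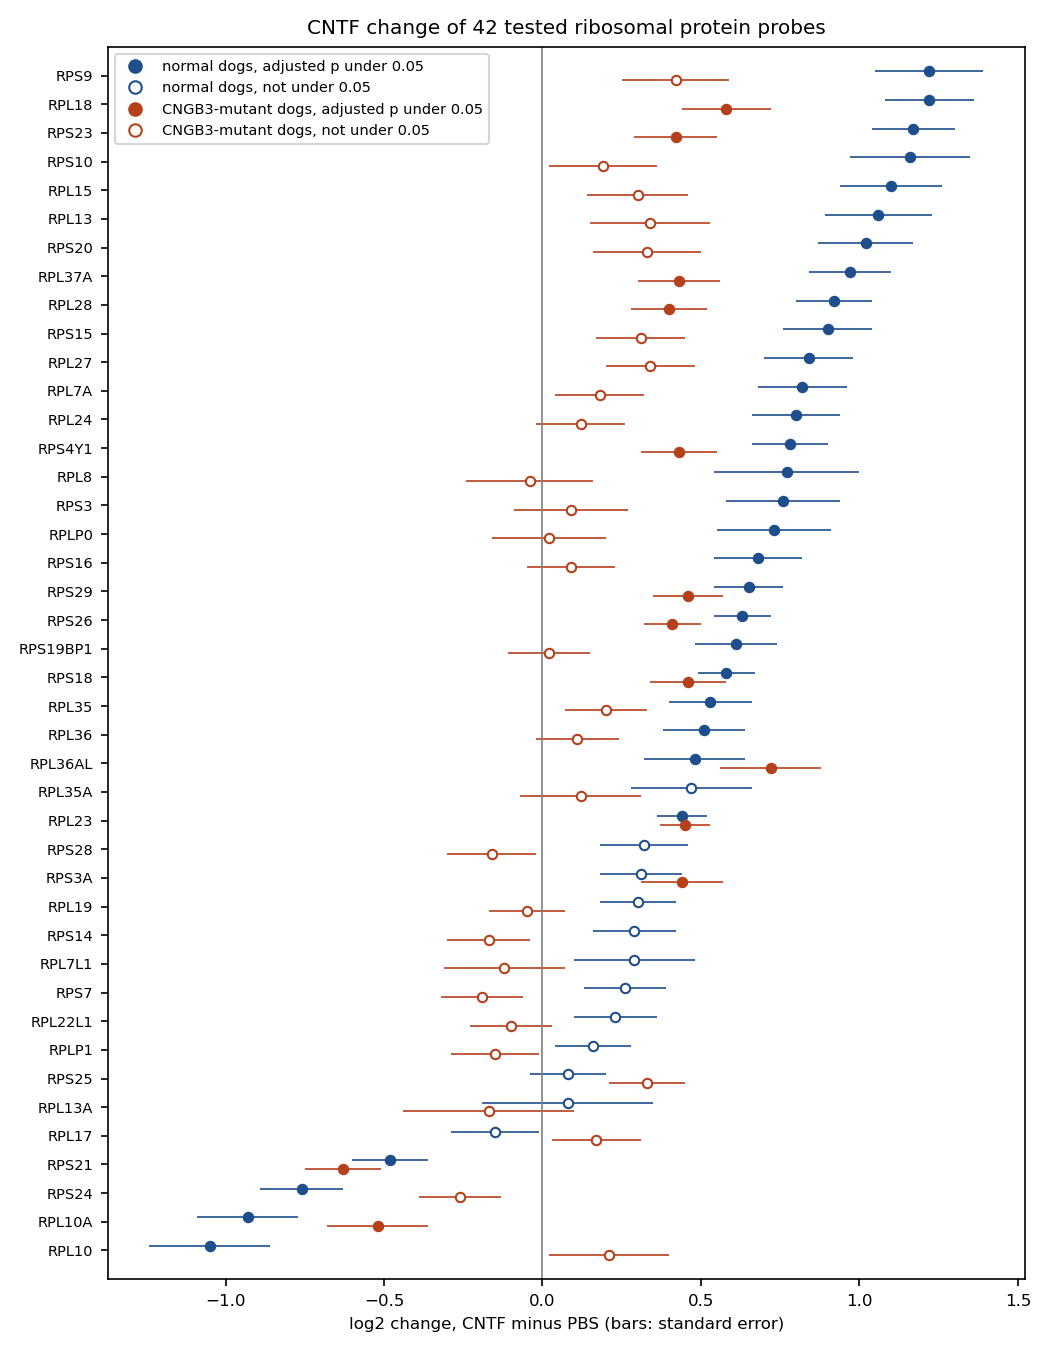
Log2 change, CNTF eye minus PBS eye, of 42 tested ribosomal protein genes in normal and CNGB3-mutant dogs, ordered by the change in normal dogs, with bars of 1 SE and filled points where the adjusted p was under 0.05. Over all 46 tested genes 40 changes lay above 0 in normal dogs and 33 in mutant dogs.

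Other probes of the same genes bear on the saturated ones. For 10 of the 13 saturated genes a probe that was never saturated could be tested, and in each the unsaturated probe gave the larger change in both genotypes. In normal dogs the saturated probe was called higher in 5 of the 10 genes and the unsaturated probe in 10. RPLP1, which with RPLP0 recruits elongation factors to the ribosome, changed by 0.16 (adjusted p = 0.275) with the saturated probe and by 0.89 ± 0.16 (SE; adjusted p = 0.0011) with the other. RPS14, whose loss contributes to the anaemia of the myelodysplastic syndrome with a deleted long arm of human chromosome 5, changed by 0.29 (adjusted p = 0.0879) and by 0.91 ± 0.13 (adjusted p = 0.00031).

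RPS7, a small-subunit protein, changed in normal dogs by 0.96 ± 0.17 with the first probe printed above (SE; adjusted p = 0.00127), by 0.72 ± 0.15 with the second (adjusted p = 0.00254) and by 0.26 ± 0.13 with the saturated one (adjusted p = 0.123). Its remaining probe, saturated on 16 arrays, gave 0.33 (adjusted p = 0.0738). RPLP0 changed by 0.73 with the saturated probe and by 1.08 with a neighbouring unsaturated one, and by -0.24 with another probe. For RPL22L1, the paralogue of RPL22, the unsaturated probe rose by 0.40 in normal dogs (adjusted p = 0.0148) and by 0.79 ± 0.11 in mutant dogs (adjusted p = 0.000434), where the saturated probe gave 0.23 and -0.10. RPS10, RPS28 and RPS4Y1 had no unsaturated probe. Of the 19 genes with several tested probes, all probes shared a direction in 17 in normal dogs and in 12 in mutant dogs.

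**Figure D3:**
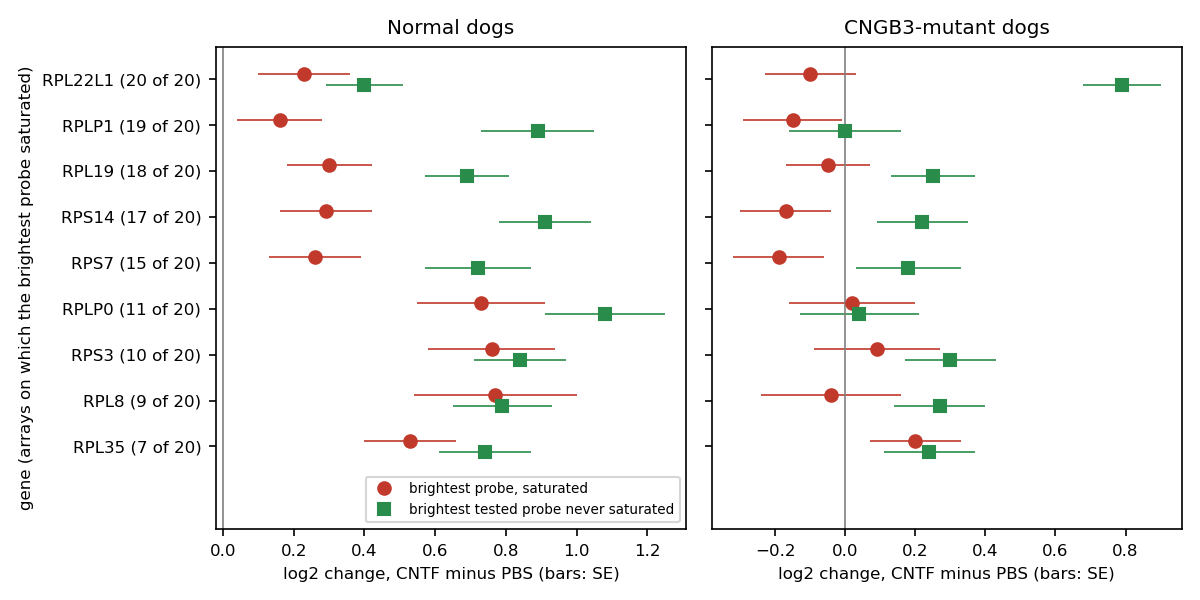
Log2 change, CNTF eye minus PBS eye, of 9 ribosomal protein genes measured with a saturated probe and with a probe saturated on no array, in normal and in mutant dogs. In each gene the unsaturated probe gave the larger value in both genotypes.

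Some probes read the opposite strand of their gene. The opposite-strand probes of RPS9 and RPL19 changed by 1.07 ± 0.15 and 0.47 ± 0.10 (SE) in normal dogs, while that of RPLP1 changed by -0.11 ± 0.29. The only probe of RPL13A, a protein that interferon-gamma releases from the ribosome in human cells, had a mean intensity of 33.8 and changed by 0.08 ± 0.27. It is complementary to a bright probe, named TC57944 in the files, that rose by 0.90 ± 0.16 in normal dogs (adjusted p = 0.00138).

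In mutant dogs fewer ribosomal protein genes were called. Of the 46, 11 were higher, 2 were lower and 33 were not called, where 11.6% of all probes were higher and 17.3% lower. The median change was 0.18, with a range of -0.63 to 0.72, against -0.09 over all probes and -0.06 over 976 other bright probes. The levels did not overlap in 2 genes that were higher, RPS18 and RPL23, and in none that were lower, against 6.88% and 7.89% of all probes. Among the 33 genes never saturated 10 were higher with a median of 0.31, and among the 13 saturated genes 1 was higher with a median of -0.04.

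RPL23 lies on the face of the large subunit that meets the small one, and binds MDM2 when free. Its levels in mutant dogs 1 to 5 were 4.91, 5.03, 4.86, 4.94 and 4.97 in PBS eyes and 5.31, 5.34, 5.30, 5.49 and 5.5 in CNTF eyes. These did not overlap, and the change was 0.45 ± 0.08 (SE, n = 5; limma, adjusted p = 0.00205). In normal dogs it stood at 4.99, 5.03, 4.89, 4.98 and 5.05 and at 5.48, 5.39, 5.40, 5.54 and 5.36, again without overlap, with a change of 0.44 ± 0.08.

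RPL36AL is a paralogue of RPL36A, which touches the tRNA in the exit site. Among the chosen probes it had the largest fitted change in mutant dogs, with levels of 2.93, 3.53, 2.53, 3.33 and 3.25 in PBS eyes and 3.24, 3.67, 3.74, 4.39 and 4.13 in CNTF eyes. The groups overlapped because PBS eyes 2, 4 and 5 stood above CNTF eye 1, but each dog was higher in its CNTF eye, by 0.72 ± 0.16 on average (SE, limma, adjusted p = 0.00578). With slide as a fixed block in place of dog, RPL36AL changed by -0.18 in mutants and -0.07 in normal dogs. RPS29, a zinc-binding small-subunit protein, rose by 0.46 ± 0.11 (adjusted p = 0.0121). RPS18, of the head of the small subunit, was measured in 3 pairs because the spots of PBS eyes 1 and 2 were marked as outlying. Its PBS levels were 5.68, 5.88 and 5.83, and its 5 CNTF levels were 6.16, 6.17, 6.07, 6.4 and 6.28, with a change of 0.46 ± 0.12 (SE, n = 3; limma, adjusted p = 0.0208).

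In mutant dogs RPS21 stood at 0.12, -0.06, 0.50, -0.48 and -0.06 in PBS eyes and at -0.16, -1.0, -0.41, -1.09 and -0.49 in CNTF eyes. Each dog was lower in the CNTF eye, by -0.63 ± 0.12 (SE, limma, adjusted p = 0.0028). RPL10A fell by 0.52 on the log2 scale (SE 0.16, adjusted p = 0.0292). Both genes were also lower in normal dogs. With slide as a fixed block in place of dog, RPS21 changed by 0.17 in mutants and 0.08 in normal dogs. Within slide 3 its difference, normal CNTF eyes minus mutant PBS eyes, was 0.06.

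Called higher in both genotypes were 10 genes: RPL18, RPL23, RPL28, RPL36AL, RPL37A, RPS18, RPS23, RPS26, RPS29 and RPS4Y1. Of all probes 23.6% were higher in normal dogs and 11.6% in mutants, and the share higher in both is not given here. RPL18 changed by 1.22 in normal and 0.58 in mutant dogs, and RPS23 by 1.17 and 0.42. RPS26, at the channel through which mRNA leaves, changed by 0.63 and 0.41. RPS3A was called in mutant dogs and not in normal dogs, with changes of 0.44 (adjusted p = 0.0284) and 0.31 (adjusted p = 0.0685). Several mutant calls depended on single dogs: RPS23 was not called once any 1 mutant dog was left out (adjusted p of 0.0527 to 0.103), RPS4Y1 without dog 1, 3 or 5 (0.0582, 0.0758 and 0.0552), and RPL10A without dog 1, 3, 4 or 5 (0.0558, 0.0816, 0.0862 and 0.0788). With another background correction, normexp, no gene was called in mutants, where 6.28% of all probes were higher and 4.96% lower.

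The difference between the genotypes in the response to CNTF was tested directly, and no ribosomal protein gene passed. The count was 0 of 46 with limma, as it was for 0.0% of all probes, and the lowest adjusted p was 0.103. At an unadjusted p under 0.05 there were 24 of the 46 genes, against 34.6% of all probes and 492 of 964 other bright probes. The median difference, mutant minus normal, was -0.40, against -0.06 over all probes and -0.40 over the other bright probes. The signed difference was below 0 for 37 of the 46 genes (80.4%), as it was for 80.7% of 964 other bright probes and 54.3% of all probes.

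Between mutant and normal dogs in PBS eyes no gene was called with limma, where 0.0102% of all probes were higher and 0.017% lower in mutants. At an unadjusted p under 0.05 there were 25 genes, against 34.6% of all probes and 584 of 1002 other bright probes. The median difference was 0.37 in favour of mutant dogs, as it was over the other bright probes. Differences lay above 0 for 36 of 46 genes, 816 of 1002 other bright probes and 14925 of all 29418 probes tested. Among the chosen probes RPL15 showed the highest, with 6.25, 7.05, 6.55, 6.73 and 6.42 in the PBS eyes of mutants against the normal levels given above. The difference was 0.78 ± 0.19 (SE, limma, adjusted p = 0.0953). Another RPL15 probe, never saturated, differed by -0.03 ± 0.13, and the remaining RPL15 probes by 0.53 to 0.65. RPL15 and RPL24 were higher without overlap and RPL10, a dim probe, was lower, against 3.13% and 2.27% of all probes. Without normal dog 1, 14 of the genes were called higher in mutants, where 13.7% of all probes were higher and 7.78% lower. RPS23, for example, then differed by 0.68 (adjusted p = 0.0361).

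In CNTF eyes the median difference, mutant minus normal, was -0.04. It ran from -0.40 for RPL37A to 0.36 for RPL10, whose probe was well above background on 2 of 5 normal and 3 of 5 mutant CNTF arrays. No gene was called with limma, where 0.0% of all probes were higher and 0.00681% lower, and 1 gene had an unadjusted p under 0.05, as had 5.6% of all probes. The comparisons share arrays: the PBS and CNTF levels of each genotype enter both the response to CNTF and the comparison of genotypes. On single arrays, the median level over the 36 genes with a value on every array was 4.46 to 4.88 in PBS eyes of normal dogs, 4.84 to 5.03 in PBS eyes of mutants, 5.25 to 5.45 in CNTF eyes of normal dogs and 5.18 to 5.39 in CNTF eyes of mutants.

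Dog by dog, the median change of the ribosomal protein genes was 0.39, 0.34, 0.80, 0.56 and 0.89 in normal dogs 1 to 5 and 0.47, 0.12, 0.12, 0.14 and 0.13 in mutant dogs 1 to 5. Mutant dog 1 thus stood above the other mutants and within the range of the normal dogs. The medians also followed the slide of the CNTF array. They were 0.39 and 0.34 for the 2 dogs whose CNTF array was on slide 3, 0.47 to 0.89 for the 4 dogs on slide 4, which include mutant dog 1, and 0.12 to 0.14 for the 4 dogs on slide 5, all mutants. Over the genes never saturated they were 0.46 and 0.36 for slide 3, 0.47 to 0.88 for slide 4, and 0.21 to 0.29 for slide 5. The 75th percentile used for scaling differed between eyes too. It was lower in the CNTF eye in normal dogs 2 to 5 and mutant dog 1, and not lower in the other dogs. In log2 units it went from 9.21 to 8.62 in normal dog 3 and from 8.98 to 8.47 in normal dog 5. It went from 8.83 to 8.92 in normal dog 1 and from 8.19 to 8.55 in mutant dog 2. Its part in the medians was not tested. The other bright probes changed by a median of 0.00, 0.09, 0.60, 0.20 and 0.53 in normal dogs and 0.11, -0.01, -0.13, -0.10 and -0.01 in mutants. With slide as a fixed block, in a fit that dropped the dog block, no ribosomal protein gene was called in either genotype. Of all probes 2.95% were then higher in normal dogs and 1.71% in mutants. The medians were then 0.70 and 0.23, and slide and treatment cannot be told apart in this layout. Within slide 3, where normal CNTF eyes meet mutant PBS eyes and so genotype changes too, the median difference was 0.20.

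**Figure D4:**
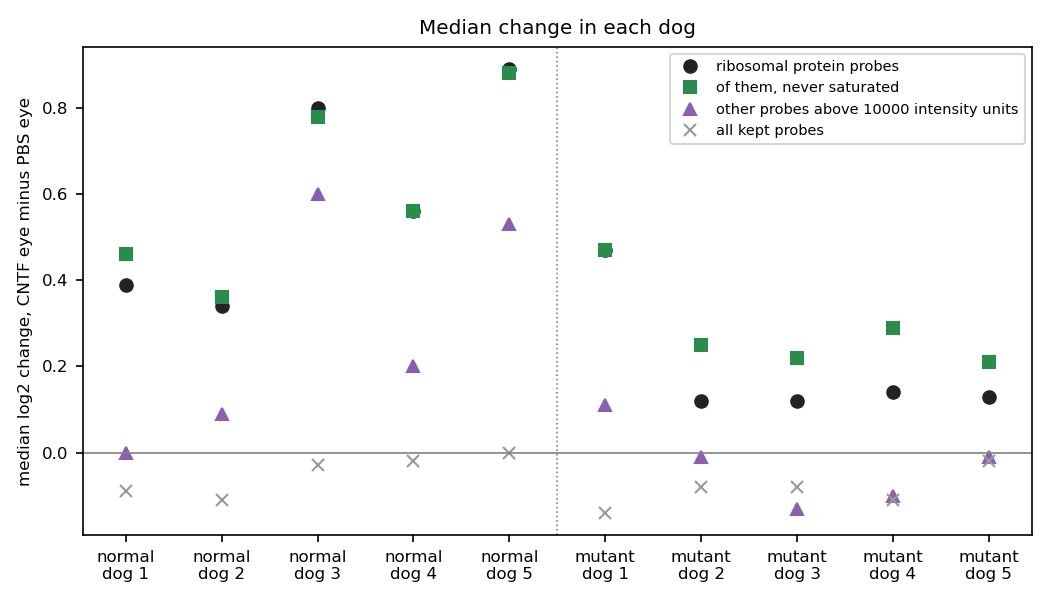
Median log2 change, CNTF eye minus PBS eye, in each of the 10 dogs, over the tested ribosomal protein genes, those never saturated, other probes with an intensity above 10000, and all probes kept. In each dog the ribosomal protein genes stood above the other bright probes, and normal dogs 3 and 5 stood highest.

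Other parts of the translation machinery were read from lists of genes. Counts for the lists here and below stand beside those of all probes. Of these 23.6% were higher and 27.6% lower in normal dogs, and 11.6% and 17.3% in mutants. The 3 subunits whose names fall outside the rule, GNB2L1, RPSA and FAU, rose in normal dogs by 0.89, 0.62 and 0.57, and none was called in mutants. Of 8 elongation factors and other mRNAs with a pyrimidine tract 5 rose in normal dogs, among them TPT1 by 0.84, PABPC1, the poly(A)-binding protein, by 0.68 and EEF1A1 by 0.53, and 4 of 9 in mutants. Of 26 initiation factors 14 were higher and 2 lower in normal dogs, with EIF3I at 0.98 and EIF3D at 0.79, both of the complex that brings mRNA to the small subunit, and 1 was higher and 1 lower in mutants.

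Of the ribosome biogenesis genes 15 of 33 were higher and 5 lower in normal dogs, among them NHP2 at 1.00 and FBL, the rRNA methyltransferase, at 0.88. In mutants 3 of 32 were higher and 1 lower, POLR1A, the largest subunit of RNA polymerase I, at -0.89. Among regulators of translation, MYC rose by 2.16 ± 0.13 in normal dogs (limma, adjusted p = 5.7e-07) and by 1.41 in mutants (adjusted p = 1.27e-05), while MTOR fell by 0.82 in mutants. Of these 17 regulators 5 were higher and 3 lower in normal dogs with a median of 0.13, and 4 were higher and 1 lower in mutants with a median of 0.06. Of 64 mitochondrial ribosomal protein genes 35 were higher and 2 lower in normal dogs with a median of 0.31, and 10 and 3 in mutants with a median of 0.06. Of 26 genes of the proteasome 16 were higher in normal dogs with a median of 0.38, and 3 in mutants with a median of 0.12.

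Markers of cell types moved as well. All 9 microglia and macrophage markers rose in normal dogs with a median of 2.66, and 8 of 9 in mutants with a median of 2.55. Of 9 rod markers 1 was higher and 1 lower in normal dogs with a median of -0.02, and 6 were lower in mutants with a median of -0.42, among them PDE6B, a subunit of the rod phosphodiesterase, at -0.95. Of 6 markers of the retinal pigment epithelium 3 were lower in normal dogs with a median of -0.56, and 2 in mutants with a median of -0.58. Of 3 tested T cell markers 1 was lower in normal dogs, and 1 was higher and 1 lower in mutants. Of 3 tested endothelial markers 1 was higher and 1 lower in normal dogs, and 1 was lower in mutants. Between genotypes none of the 6 pigment epithelium markers was called, with medians of -0.81 in PBS eyes and -0.90 in CNTF eyes. Their summed intensity, not scaled from array to array, was 36785 in the PBS eye of mutant dog 2 and 66341 to 74764 in the other PBS eyes. The array of that eye had the lowest 75th percentile, 291 intensity units, against 359.2 to 592.5 in the other PBS eyes. Its scaled ribosomal protein median was the highest of the PBS eyes, 5.03. Without mutant dog 2 the median genotype difference in PBS eyes was 0.30. The markers' part in the ribosomal protein values was not tested.

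**Figure D5:**
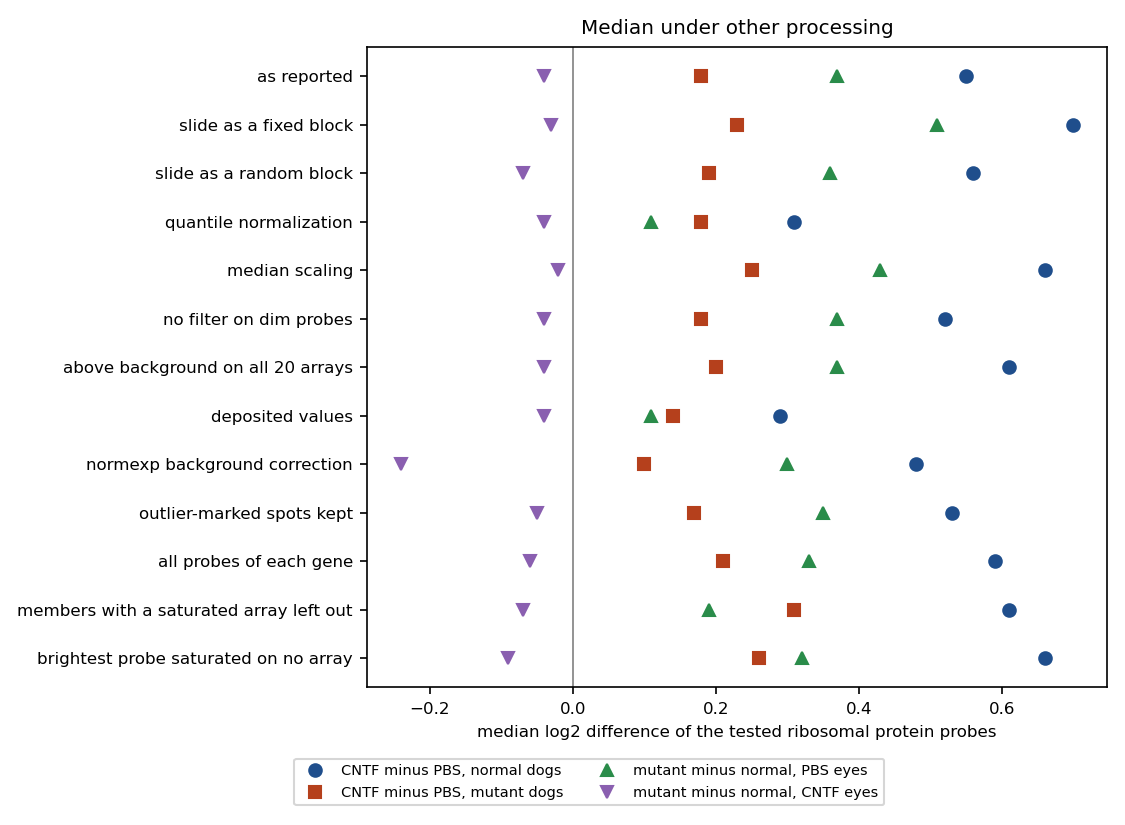
Median log2 difference of the tested ribosomal protein genes under each way of processing the arrays, for CNTF minus PBS in normal and in mutant dogs and for mutant minus normal in PBS and in CNTF eyes. Among the settings plotted, the CNTF medians of normal dogs ran from 0.29 with the deposited values to 0.70 with slide as a fixed block.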

How the data were processed

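Single-colour Agilent arrays (Cy3, 100 ng of RNA) of 20 retinas were used. The array files hold intensity per spot: per the file headers, the deposited intensities were background-subtracted, with no scaling from array to array. The submitters' processing notes name Agilent Feature Extraction 9.5.3.1 and Partek 6.4. The deposited table holds log2 values of the authors, with a median of 6.18 in each column and slopes of 0.954 to 1.06 against log2 intensity. This table was used only as an alternative.

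Control spots (1417 per array) and outlier-marked spots were left out, spots of a probe were averaged, and each array's 75th percentile was subtracted from log2 intensity. A probe was kept if 4 of the 5 arrays in some group had it well above background (29462 probes), with at least 3 arrays per group for a test. In R 4.3.3, limma 3.58.1 fitted all 20 arrays, blocking on dog, with separate CNTF terms for the genotypes. Genotypes were compared on 10 arrays each without covariates. Tests were two-sided, with Benjamini-Hochberg adjustment over all probes. Both eyes of a dog were paired by the labels, and deviations of paired arrays correlated at -0.15 to 0.689. On simulated data, changes of 1 on the log2 scale were recovered in 41% of probes for CNTF in normal dogs and in 35% for genotype in PBS eyes, and changes of 0.5 in 0% of either. The number of arrays limits the precision. Figures were drawn with Python 3.11.15 and matplotlib 3.10.9.

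Genes described singly were the 5 largest rises and 5 largest falls among those called in each genotype with the same direction in all measured dogs, all saturated genes, and a list of names. Further genes were named to fill out a group after their values were seen. Symbols were matched to RefSeq names of the assembly UU_Cfam_GSD_1.0, where 48 of 50 were found. Some genes that meet this rule are counted but not reported by name here. Members and lists were chosen with earlier results of these data known. Alternatives covered scaling, background correction, filters, the dog and slide blocks, saturated spots, the deposited values and leaving out each dog. Fits with a slide block, fixed or random, left out the dog block, so the eyes were not paired in them.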

Additional observations from a re-analysis of the deposited data

Results flagged for a closer look

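In 4 of 171 groups of values, each of 1 gene or of the genes' median in 1 group of retinas, a single array stood far from the other values of its group, where chance gives about 1 in 20. RPL10 stood at -2.38 in the PBS eye of normal dog 2, with the others at -3.39 to -3.12, and at -5.01 in the PBS eye of mutant dog 2, with the others at -3.88 to -3.56. RPL17, so named in the files although its probe's description names another gene, stood at 1.95 in the CNTF eye of normal dog 5, with the others at 2.13 to 2.20. RPS18 stood at 6.45 in the CNTF eye of normal dog 1, with the others at 6.19 to 6.23.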

How the results depend on the processing

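In normal dogs the median change of the ribosomal protein genes was 0.55, and it was 0.29 with the deposited values. Within slide 3, where normal CNTF eyes meet mutant PBS eyes, the median difference was 0.20. The number called higher in normal dogs was 29, against 0 with slide as a fixed block, 18 with normexp background correction and 60 over all 84 tested probes of the names. The number called lower was 4, against 0 with slide fixed and 2 with normexp. Of all probes in normal dogs 2.95% were higher and 0.973% lower with slide fixed, and 12.0% and 7.63% with normexp. Leaving out each dog gave 26 to 32 higher, 4 to 5 lower and a median of 0.50 to 0.62. In mutant dogs 11 were higher, against 0 with slide fixed, 6 without a filter on dim probes, 0 with normexp and 20 over all probes, and 5 to 8 with each dog left out, where dogs 2, 3, 4 and 5 each lowered the count to 7 or fewer. The 2 called lower became 0 with slide fixed, 1 with scaling to the median, 1 without the filter, 0 with normexp, and 1 to 2 with each dog left out, with a median of 0.11 to 0.22. Of all probes in mutants 1.71% were higher and 1.02% lower with slide fixed, and 6.28% and 4.96% with normexp. Without the filter 7.07% were higher and 8.79% lower, and with scaling to the median 13.5% were lower. Without the replicate block that pairs the eyes of a dog, 28 were higher and 4 lower in normal dogs, and 7 higher and 1 lower in mutants, with medians of 0.55 and 0.18. Of all probes 19.7% were then higher and 19.6% lower in normal dogs, and 9.64% and 13.1% in mutants. With the replicate block in the genotype comparisons, the medians were 0.37 and -0.04 and 0 genes were called. The median difference of the responses was -0.40, and it was -0.16 with quantile normalization, -0.17 with the deposited values and -0.49 to -0.34 with each dog left out. Between genotypes in PBS eyes, slide as a random block gave 23 higher and 1 lower against none, where 19.9% and 13.9% of all probes were called, leaving out normal dog 1 gave 14 higher (0 to 14 over the dogs), and the median of 0.37 became 0.11 with quantile normalization, 0.11 with the deposited values, 0.19 without saturated genes and 0.28 to 0.45 with each dog left out. In that fit with slide as a random block, the estimated correlation of arrays on a slide was -0.178. A value below 0 cannot stand for a shared slide effect, so the 23 calls were not freed of slide. In CNTF eyes the median was -0.24 with normexp and -0.11 to 0.03 with each dog left out. With slide fixed RPS21 turned to 0.08 in normal dogs and to 0.17 in mutants. Its difference within slide 3, which crosses the genotypes, was 0.06. RPL36AL turned to -0.07 in normal dogs and -0.18 in mutants with slide fixed. The difference of RPS19BP1 within slide 3, again across the genotypes, was -0.10. The causes were not tested. Saturation limits the 13 genes that reached the scanner's ceiling, and dim signal limits RPL10 and RPL13A.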
